A study of Mus musculus with 24 samples.

Results

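The collagen genes were examined in bulk RNA-Seq of 4 tissues of Trex1-KO mice, the heart, stomach, skeletal muscle and tongue. Members were the protein-coding genes whose GENCODE M21 symbol is Col, a number, a and a number, which gave 44 of the 54532 genes in each sample and of the 21995 protein-coding genes. Every mouse was Trex1-KO, that is Trex1-/- on a C57BL/6J background, bred from heterozygous parents and 1 month old at the start of dosing. Mice labelled untreated, which received the carrier solution and are called control samples here, were compared with mice given SN-011, an antagonist of the innate immune adaptor STING, at 5 mg/kg 3 times a week for 4 weeks as labelled. The published methods describe another dose and a daily schedule. No wild-type group was analysed here, so each comparison is between treated and control animals that all lack Trex1. There were 3 samples in each of 8 groups and 24 samples in all. The labels do not say whether the samples of a group came from separate mice, so the p-values measure the spread between these samples.

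Collagens are the structural proteins of the extracellular matrix. Each is made of 3 chains that wind around each other into a triple helix, and a glycine in each triplet of residues lets the helix close. Fibroblasts, muscle cells, vessel walls and epithelia each make their own set: fibrillar chains give tendon, wall and stroma their strength, the network-forming chains of type IV build basement membranes, the microfibrils of type VI surround cells, and types VII and XVII tie stratified epithelium to the tissue below. Excess fibrillar collagen is the hallmark of fibrosis.

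The repeat that makes a gene a collagen is visible in its coding sequence, and 4 stretches are shown because they come from chains of 4 different assemblies on which the results below turn. Each line gives the first 30 codons of the longest uninterrupted run of glycine triplets in the longest GENCODE coding transcript, read on GRCm38, with the glycine codons (GGN) in capitals.
Col1a1, codons 168 to 197: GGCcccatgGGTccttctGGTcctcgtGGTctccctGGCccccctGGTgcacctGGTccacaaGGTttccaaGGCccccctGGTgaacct
Col4a1, codons 43 to 72: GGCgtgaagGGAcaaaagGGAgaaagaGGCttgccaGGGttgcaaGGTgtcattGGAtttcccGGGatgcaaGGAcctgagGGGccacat
Col7a1, codons 2518 to 2547: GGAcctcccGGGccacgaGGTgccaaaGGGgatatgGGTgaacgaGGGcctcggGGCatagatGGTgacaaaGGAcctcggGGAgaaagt
Col17a1, codons 648 to 677: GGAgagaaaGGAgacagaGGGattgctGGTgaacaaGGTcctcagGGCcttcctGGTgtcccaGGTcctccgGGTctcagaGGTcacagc
The longest run held 216 to 344 triplets in the 11 fibrillar genes, and 338 in Col1a1. In the 6 basement membrane genes it held 39 to 66 triplets, with 16 to 19 separate runs of at least 10, so that the helix of these chains is broken many times. Col7a1 had 75 triplets in its longest run and Col17a1 had 56. The remaining classes ranged from 32 to 113 in the 9 fibril-associated genes (FACIT), from 37 to 87 in the 6 beaded filament genes, from 60 to 61 in the 3 short chain genes, from 40 to 56 in the 4 transmembrane genes, from 23 to 28 in 2 other genes, and stood at 30 in both multiplexin genes.

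The samples held 14253416 to 18443329 counts on genes, with a median of 16221409, and 3 counts correspond to a counts-per-million value (CPM) of 0.163 to 0.210. Markers of cardiac, skeletal muscle and keratinized epithelial cells were abundant in the tissues labelled so, and the sum of 4 gastric genes (Gkn1, Gkn2, Tff1, Atp4b) was 24095 to 88729 CPM in the stomach control samples and 4114 to 30643 CPM in the stomach SN-011 samples. The same genes were also found at up to 1299 CPM in control and up to 27.2 CPM in SN-011 samples of the other tissues. The library labelled muscle SN-011 replicate 2 stood apart, with counts on 11546 genes against 19798 or more in every other library and on 23 collagen genes against 39 to 44. The control replicate 1 of every tissue carried 3060 to 13811 counts of Xist, the RNA of the inactive X chromosome, and at most 3 of the Y-linked Ddx3y, whereas the other 20 samples showed the male pattern. Sex therefore differs within the control groups only, and results were recomputed without the libraries named here. No read was assigned to Trex1 in any library, which is no check of the genotype because the gene shares its locus with Atrip in the annotation.

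To compare genes with each other, levels were expressed as TMM-normalised CPM per kilobase of exon (RPKM). In the control samples the fibrillar chains made up the largest share of the summed collagen level in heart (44.4% ± 2.62, SD, n = 3), stomach (42.9% ± 3.13) and muscle (57.7% ± 3.97), but only 18.6% ± 3.15 in the tongue. Basement membrane chains came next in heart with 33.7% ± 1.40, and beaded filament chains in stomach with 26.8% ± 2.65. In the tongue the transmembrane class led with 40.1% ± 4.47, and it stayed between 0.24% and 1.19% in the other tissues. Shares depend on the length that is assumed for each gene: with the longest coding transcript in place of all exons, the fibrillar share was 51.7%, 51.8%, 64.3% and 24.6% in heart, stomach, muscle and tongue.

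**Figure D1:**
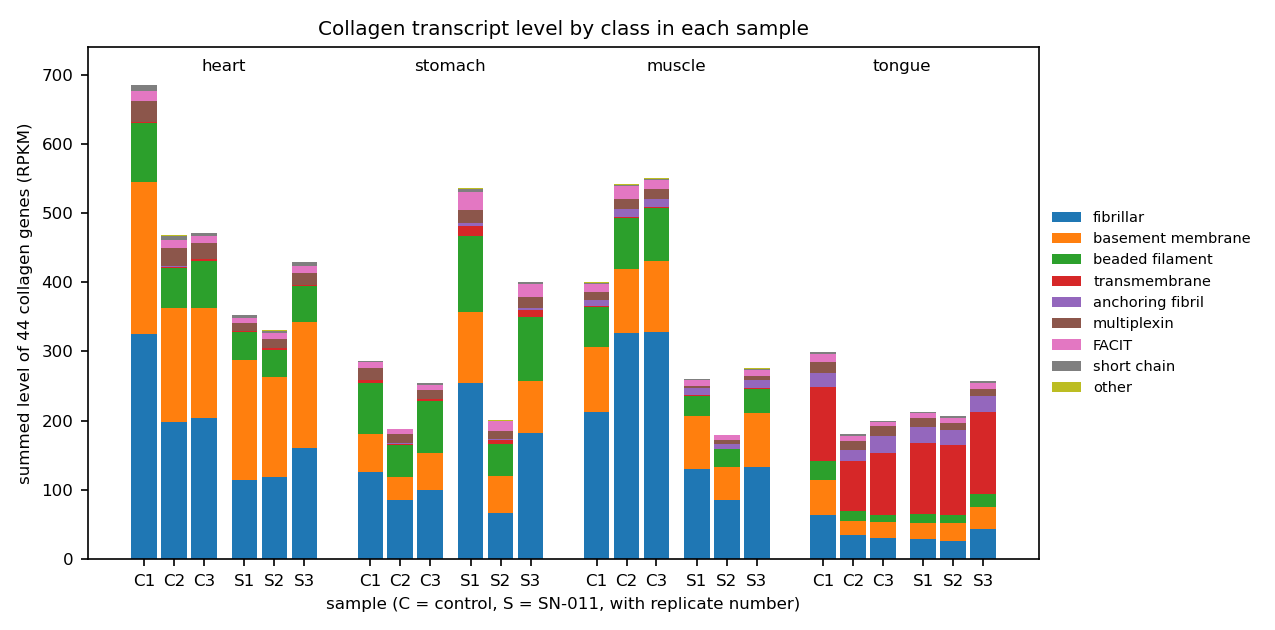
Summed RPKM of the collagen genes in each of the 24 samples, stacked by class, with control and SN-011 samples of each tissue side by side. The transmembrane class is tall in all 6 tongue samples and barely visible elsewhere, and the summed level ranges from 179 RPKM in muscle SN-011 replicate 2 to 685 RPKM in heart control replicate 1.

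In the heart the highest level belonged to Col4a1, which with Col4a2 forms the most widespread basement membrane collagen, at 96.3 ± 18.0 RPKM. Col1a1 (89.5 ± 29.6) and Col3a1 (78.8 ± 22.8), chains of the main fibrils of stroma and vessel walls, and Col4a2 (75.9 ± 16.7) followed, and these neighbours did not differ beyond their spread. In muscle Col1a1 led with 103 ± 28.2 RPKM, ahead of Col3a1 (81.1 ± 21.2), Col1a2 (60.9 ± 12.2), Col4a1 (52.8 ± 4.34) and Col4a2 (41.9 ± 1.79). In the stomach Col3a1 (42.3 ± 4.90 RPKM) and Col6a1 (38.7 ± 13.2), a chain of the pericellular microfibrils, were followed by Col1a2 (25.2 ± 6.01), Col1a1 (21.0 ± 9.60) and Col4a1 (18.6 ± 4.41). When the longest coding transcript was used as length, Col3a1 stood first in heart, stomach and muscle, so the order among these genes rests on the length chosen.

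The tongue differed in its leading gene. Col17a1, a transmembrane collagen of the hemidesmosome in basal keratinocytes, was at 105, 70.7 and 87.7 RPKM in the control samples and 101, 100.1 and 117 RPKM in the SN-011 samples. It made up 39.3% of the collagen level in the control samples and was first with either length. Col7a1, which forms the anchoring fibrils under stratified epithelium, was next with 20.0 ± 3.36 RPKM, and Col4a1 (15.8 ± 9.20), Col4a2 (13.5 ± 7.07) and Col3a1 (13.4 ± 5.82) followed. The basal epithelial markers Krt5, Krt14, Trp63 and Itgb4 summed to 7693 to 9869.5 CPM in the control samples and 9002 to 10562 CPM in the SN-011 samples, and at most 18.6 CPM in any heart or muscle sample.

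To test which collagen genes distinguished a tissue, the control samples of each tissue were compared with the mean of the other 3 tissues in a joint edgeR quasi-likelihood fit of all 24 samples, in which 42 collagen genes were tested. The 4 comparisons share the same 12 control samples. The fit took samples as independent, although tissues with the same replicate number may come from 1 mouse. In muscle 19 collagen genes were higher (45.2%) and 7 were lower at an adjusted p under 0.05, where 22.8% and 22.5% of all 19731 genes tested were. In the tongue 18 were lower (42.9%) and 4 higher, beside 10.3% and 17.0% of all genes. The heart had 15 higher and 8 lower, beside 17.3% and 13.5%. The stomach had 9 higher and 14 lower, beside 25.3% and 22.2%. The split depended on the scaling in 3 tissues: with library size alone it was 20 higher and 5 lower in heart, 12 and 10 in stomach and 11 and 12 in muscle. With that scaling the median over all genes moved from -0.17 to -0.98 on the log2 scale in muscle. It moved from -0.03 to 0.27 in heart, 0.01 to 0.26 in stomach and 0.02 to 0.28 in tongue. The share of all genes called with library size alone is not given here, so that split cannot be read as particular to collagens. Col1a1 was higher in heart and muscle by 1.75 and 2.03 on the log2 scale and differed from the other tissues by -1.04 in stomach and -2.73 in tongue.

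Col17a1 was higher in the tongue by 9.53 on the log2 scale in control mice and by 9.74 in the SN-011 mice, which are other samples, and it was below 1 CPM in every heart and muscle library. Col7a1 was higher in the tongue by 4.07 and in muscle by 2.91, and differed by -3.65 in the heart and -3.32 in the stomach. In muscle Col22a1, a FACIT of the muscle-tendon junction, was higher by 5.48 in control and 4.77 in SN-011 mice. In the stomach Col6a4 and Col6a5, further type VI chains, were both higher by 5.22, and Col4a6, a basement membrane chain of smooth muscle, was higher by 3.71. Col8a1, a short chain collagen of vessel walls, was higher in the heart by 2.61 and Col11a1, a minor fibrillar chain, differed there by -3.06. Further called genes were Col26a1 (3.64) and Col6a6 (3.54) in muscle, Col4a6 (-5.20) in muscle, Col22a1 (-3.89) in stomach, Col24a1 (-3.69) in heart, and Col6a5 (-3.45), Col6a4 (-3.01) and Col9a2 (-2.48) in tongue, each with low counts in the lower tissues. All of these passed the test at an adjusted p under 0.05 in control mice.

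Part of the tissue differences was smaller or not called in the SN-011 mice. Of the genes called in control mice, 16 of 23 in heart, 11 of 23 in stomach, 12 of 26 in muscle and 19 of 22 in tongue were also called in the same direction in the SN-011 mice, and 5 stomach and 3 muscle genes had the opposite sign there. Col1a1 in stomach, for example, went from -1.04 in control mice to 0.94 in SN-011 mice. Col6a6 (-4.30 and -0.19), Col26a1 (-4.85 and 0.36) and Col7a1 (-3.32 and -0.54) in the stomach also lay nearer to the other tissues in the SN-011 mice. In the stomach control samples Col6a6 had 4, 10 and 0 counts and Col26a1 had 0, 0 and 2. Their control ratios therefore rest on few reads, and Col26a1 had 0 counts in SN-011 replicate 2 as well. Each of these differences also moves with the levels in the other tissues. Several genes were too low for a ratio: Col2a1, the cartilage fibrillar chain, had 0 counts in the 3 stomach control samples and at most 0.849 CPM in any library, and Col19a1 had 0 counts in all 6 heart samples.

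To assess the effect of SN-011, treated and control samples were compared within each tissue with edgeR's quasi-likelihood test and Benjamini-Hochberg adjustment over all genes tested. Of the 44 genes, 41 passed the filter on low counts in at least 1 tissue and 31 in all 4, and Col2a1, Col9a1 and Col10a1, chains of cartilage, passed in none. No collagen gene passed an adjusted p of 0.05 in any tissue, and few genes of any kind did in these comparisons of 3 against 3. The direction nevertheless differed by tissue. Among tested collagens 31 of 36 had a negative log2 difference in heart (median -0.47) and 33 of 35 in muscle (median -0.82), while 35 of 39 were positive in stomach (median 0.75). The medians over all genes were -0.01, -0.08 and 0.00, and with library size alone -0.16, -0.31 and 0.18, beside collagen medians of -0.63, -1.07 and 0.98. In the tongue 27 of 36 were negative with a median of -0.24, but leaving out control replicate 1 left 13 of 36 negative and a median of 0.19. Of the 31 genes tested everywhere, 23 were negative in heart and muscle and positive in stomach, Col15a1 and Col4a3 were negative in all 4 tissues, and Col6a5 was positive in all 4.

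**Figure D2:**
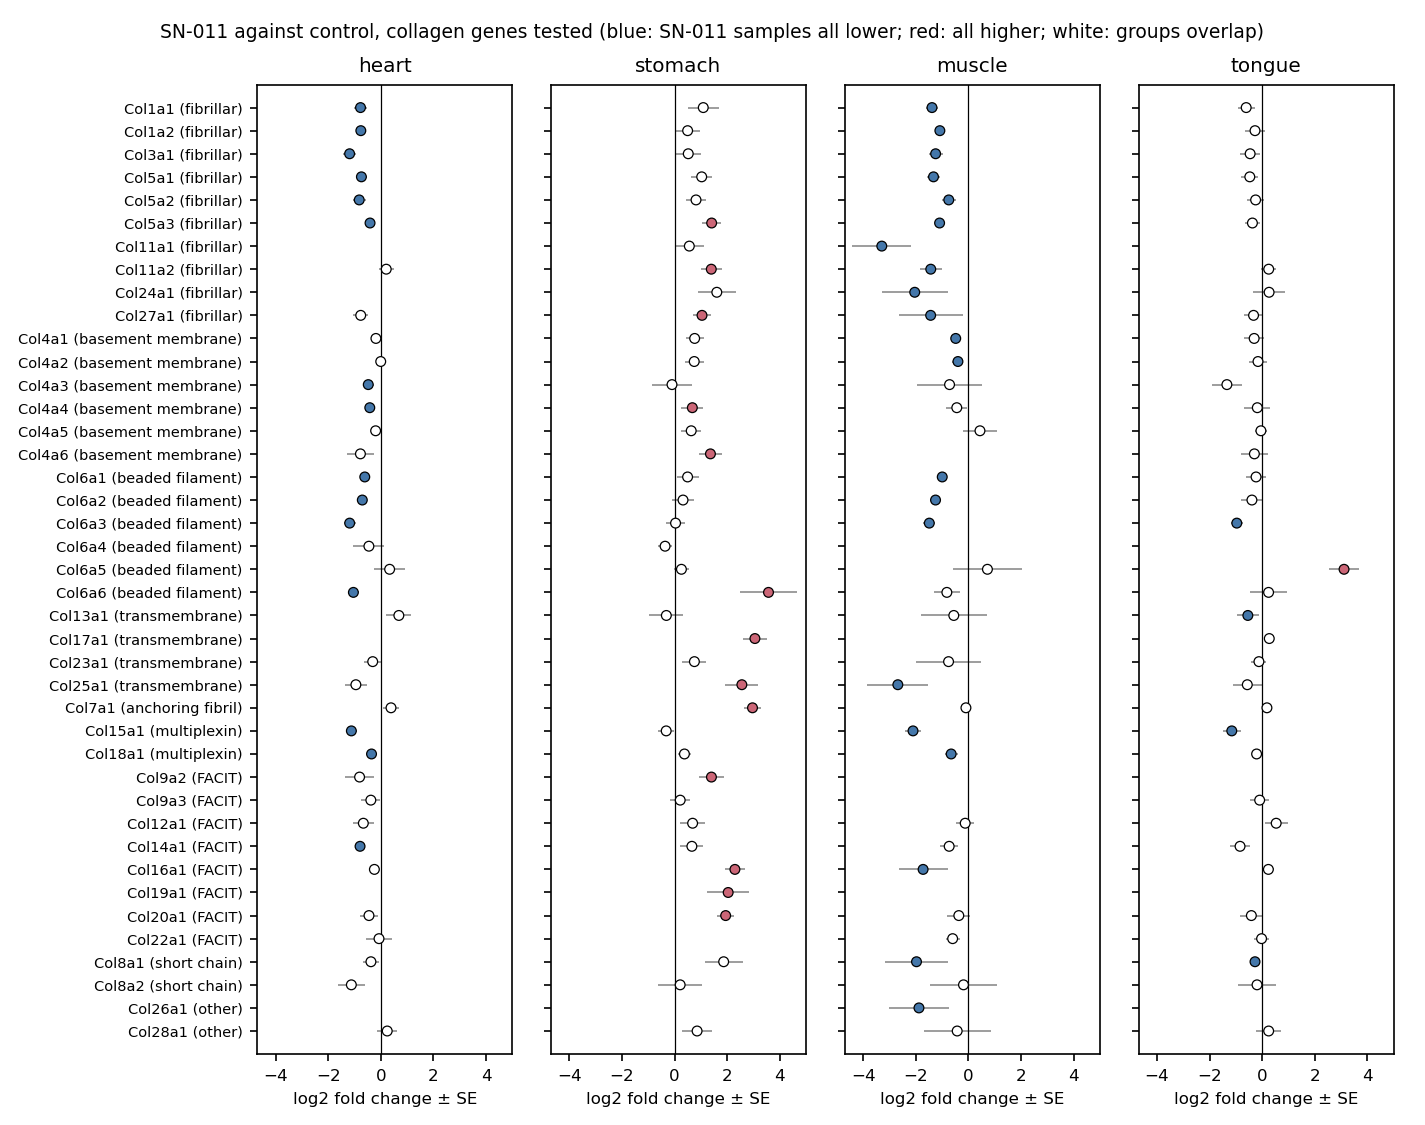
Log2 difference of SN-011 from control for the collagen genes in each tissue, from edgeR, arranged by class. Points lie mostly below 0 in heart and muscle and mostly above 0 in stomach, with the largest stomach values at Col6a6 (3.57), Col17a1 (3.05) and Col7a1 (2.96).

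In the heart, most fibrillar and type VI chains were lower in the SN-011 samples, while Col4a1 and Col4a2 of the basement membrane overlapped between the groups. By edgeR's quasi-likelihood test 0 of 36 collagens passed an adjusted p of 0.05, beside 0.848% of all 16151 genes. At an unadjusted p under 0.05, 16 collagens were lower (44.4%) and 0 higher, beside 11.6% and 10.8% of all genes, and DESeq2 and edgeR's exact test each called 11 after adjustment, beside 8.43% and 5.65% of all genes. The control and SN-011 samples did not overlap for 15 collagens, all lower, and for 0 that were higher, beside 13.1% and 14.1% of all genes. Of the 8 fibrillar genes tested, 7 were lower at an unadjusted p under 0.05, as were 4 of 6 beaded filament genes, both multiplexins, 2 of 6 basement membrane genes and 1 of 7 FACITs.

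Col3a1, which lies at chromosome 1, 45311538 to 45349706 (GRCm38, plus strand), was at 1141, 698 and 746 CPM in the control samples and 310.3, 337 and 488 CPM in the SN-011 samples in the heart. All 3 SN-011 values were below all 3 control values. The log2 difference was -1.19 ± 0.24 (SE), a 2.28-fold lower level, with an adjusted p of 0.0565 by edgeR's quasi-likelihood test. Of its partners in the same fibrils, Col1a1 (chromosome 11, 94936224 to 94953042) was at 899, 533 and 531 CPM in the control samples and 331, 336 and 482 CPM in the SN-011 samples, and Col1a2 (chromosome 6, 4504814 to 4541544) at 758, 486 and 499.6 CPM in the control samples and 309, 329 and 392 CPM in the SN-011 samples. Control replicate 1 was the highest sample for all 3 genes, and the groups still did not overlap. The log2 differences of Col1a1 and Col1a2 were -0.77 ± 0.24 and -0.76 ± 0.20, with adjusted p of 0.123 and 0.0888. The type V chains that start such fibrils, Col5a1 and Col5a2, gave -0.74 and -0.82, and Col27a1 gave -0.77.

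Col6a3, the large chain of the type VI microfibril (chromosome 1, 90765923 to 90843971, minus strand), was at 82.0, 57.5 and 52.8 CPM in the control samples and 22.4, 24.1 and 38.0 CPM in the SN-011 samples. The groups were apart, with a log2 difference of -1.19 ± 0.23 and an adjusted p of 0.0544. Col6a1 (-0.61) and Col6a2 (-0.70) were also apart, and Col6a6 was at 8.71, 10.1 and 12.6 CPM in the control samples and 5.58, 4.80 and 4.86 CPM in the SN-011 samples, a difference of -1.04 ± 0.21. Col15a1, a multiplexin at the outer face of the basement membrane of muscle cells and capillaries (chromosome 4, 47208161 to 47313167), was at 153, 141 and 117 CPM in the control samples and 46.5, 56.5 and 86.0 CPM in the SN-011 samples. This was 2.17-fold lower, -1.12 ± 0.22 on the log2 scale, with an adjusted p of 0.0543. Col18a1, the other multiplexin and the source of endostatin, gave -0.35. Among the FACITs that coat fibrils, Col14a1 was at 72.9, 45.9 and 48.4 CPM in the control samples and 30.4, 32.0 and 34.2 CPM in the SN-011 samples, a difference of -0.79 ± 0.18, and Col12a1 gave -0.67 with overlapping groups.

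By contrast, Col4a1 (chromosome 8, 11198423 to 11312826) was at 968, 718 and 718 CPM in the control samples and 733, 589.8 and 789 CPM in the SN-011 samples, so that the groups overlapped, with a log2 difference of -0.19 ± 0.18. Its neighbour Col4a2, which starts head to head with it, gave -0.00 ± 0.17. The minor chain Col4a3 gave -0.48. Basement membrane chains took 45.1% ± 3.42 of the collagen level in the SN-011 hearts against 33.7% ± 1.40 in the control hearts, and fibrillar chains 35.2% ± 2.45 against 44.4% ± 2.62, with no overlap for either share. Col7a1 was at 3.16, 5.18 and 4.12 CPM in the control samples and 3.90, 5.52 and 6.81 CPM in the SN-011 samples, and Col8a1 at 64.0, 49.9 and 24.3 CPM in the control samples and 32.0, 31.4 and 43.0 CPM in the SN-011 samples, each with overlapping groups, and Col17a1 was below 1 CPM in every heart sample and was not tested.

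A single heart library changed the counts. Without control replicate 1, the female sample, 16 collagens were lower at an unadjusted p under 0.05, beside 10.8% of all genes, and the fibrillar median went from -0.76 to -0.50, with 0 called after adjustment by edgeR's quasi-likelihood test, beside 1.1%. Without control replicate 2, 7 collagens were called, namely Col1a2, Col3a1, Col6a2, Col6a3, Col6a6, Col14a1 and Col15a1, beside 4.74% of all genes. The 7 fibroblast markers summed to 947 to 1026 CPM in the control samples and 752 to 992 CPM in the SN-011 samples, of which Lum fell by 0.90 on the log2 scale (adjusted p of 0.0481 by edgeR's quasi-likelihood test). Lum, Dpt, Pdgfra and Thy1 were lower and Pi16 higher at an unadjusted p under 0.05, and 4 endothelial markers summed to 641 to 741 CPM in the control samples and 545 to 689.6 CPM in the SN-011 samples. The 4 cardiomyocyte markers (Myh6, Nppa, Tnnt2, Actc1) had positive differences and summed to 25479.7 to 36403 CPM in the control samples and 35356 to 42158 CPM in the SN-011 samples, with overlapping sums, and Tnnt2 was higher at an unadjusted p under 0.05 (0.54). In bulk RNA, fewer cells of a type and less RNA per cell cannot be told apart, and the part of these markers in the collagen values was not tested.

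In muscle every tested fibrillar chain was lower in the SN-011 samples without overlap, and Col7a1 was not separated. None of 35 tested collagens passed an adjusted p of 0.05, beside 0.0141% of all 14198 genes, and 14 (40.0%) were lower and 0 higher at an unadjusted p under 0.05, beside 5.8% and 8.96% of all genes. DESeq2 called 11 and edgeR's exact test 9 after adjustment, beside 6.2% and 3.11% of all genes. The groups did not overlap for 21 collagens, all lower (60.0%), and for 0 that were higher, beside 19.8% and 14.7% of all genes. All 10 fibrillar genes tested had groups apart, with a median of -1.35, and 8 were lower at an unadjusted p under 0.05, as were 3 of 5 beaded filament genes, both multiplexins and 1 of 5 basement membrane genes.

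Col1a1 was at 292, 499 and 440.0 CPM in the control samples and 176, 128 and 168 CPM in the SN-011 samples, and Col3a1 at 352, 510.3 and 580.4 CPM in the control samples and 217, 143 and 248 CPM in the SN-011 samples. For both genes every SN-011 sample was below every control sample, with log2 differences of -1.38 ± 0.24 and -1.25 ± 0.27 and adjusted p of 0.107 and 0.146 by edgeR's quasi-likelihood test. Col1a2 differed by -1.08 ± 0.16. Col5a3, a type V chain found in muscle, was at 73.3, 82.5 and 94.5 CPM in the control samples and 39.8, 40.5 and 36.8 CPM in the SN-011 samples, which is a difference of -1.09 ± 0.13 (adjusted p of 0.0764). The other type V chains gave -1.33 for Col5a1 and -0.75 for Col5a2, and the minor fibrillar chains Col11a1 and Col11a2, which nucleate fibrils, gave -3.29 and -1.43. Col11a1 was at 2.96, 3.40 and 3.13 CPM in the control samples and 0.649, 0 and 0.283 CPM in the SN-011 samples, so its ratio rests on few counts.

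Among tested collagens with a control mean above 10 CPM in muscle, Col15a1 had the largest difference, at 25.5, 39.8 and 38.2 CPM in the control samples and 5.71, 8.08 and 10.3 CPM in the SN-011 samples. This 4.30-fold lower level corresponds to -2.10 ± 0.29 on the log2 scale, with an adjusted p of 0.0764 by edgeR's quasi-likelihood test. Col6a3 was at 45.7, 65.5 and 56.6 CPM in the control samples and 15.1, 24.1 and 20.7 CPM in the SN-011 samples, a difference of -1.49 ± 0.22, and Col6a1 (-0.99) and Col6a2 (-1.25) were apart as well. Col4a1 was lower by less, at 239.8, 221 and 256 CPM in the control samples and 176, 155 and 182 CPM in the SN-011 samples, with a difference of -0.48 ± 0.12, and Col4a2 gave -0.40. Col18a1 gave -0.65, Col14a1 -0.73, Col12a1 -0.12 and Col8a1 -1.97. Col8a1 was at 5.54, 4.98 and 3.18 CPM in the control samples and 1.69, 0 and 1.76 CPM in the SN-011 samples. Without SN-011 replicate 2, the sample at 0, its difference was -1.40.

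Col7a1 was the main exception among the higher collagens of muscle. It was at 61.1, 74.2 and 69.3 CPM in the control samples and 60.9, 54.2 and 76.6 CPM in the SN-011 samples, the groups overlapped, and the difference was -0.09 ± 0.16. Its share of the collagen level was 4.07% ± 0.35 in the SN-011 and 2.22% ± 0.17 in the control samples. Fibrillar chains took 48.5% ± 1.25 against 57.7% ± 3.97 and basement membrane chains 28.3% ± 1.29 against 19.8% ± 3.49, both without overlap. Col17a1 was at most 0.555 CPM in muscle and was not tested.

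These counts depended on SN-011 replicate 2, the library with few genes detected. Without it 15 collagens were called in muscle, with Col1a1, Col1a2, Col3a1, Col5a1, Col5a3, Col6a1, Col6a2, Col6a3, Col11a1, Col11a2, Col14a1, Col15a1, Col16a1, Col18a1 and Col8a1 all falling, beside 7.4% of all genes. In that fit 24 were lower and 1 higher at an unadjusted p under 0.05, beside 16.3% and 14.6% of all genes, and the collagen median was -1.04. Without control replicate 1, Col1a2 and Col5a3 were called, beside 0.467% of all genes. Fibroblast markers summed to 426 to 486 CPM in the control samples and 244 to 419.6 CPM in the SN-011 samples, with 6 of 6 tested markers negative and Dpt and Lum lower at an unadjusted p under 0.05. Endothelial markers summed to 188 to 233 CPM in the control samples and 132 to 164 CPM in the SN-011 samples. The muscle fibre markers Ckm, Acta1, Myh4 and Mylpf had positive differences, with 0 of 4 at an unadjusted p under 0.05, and their sums did not overlap, at 98085 to 113328 CPM in the control samples and 117607 to 143234 CPM in the SN-011 samples. The part of these sets in the collagen values was not tested.

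**Figure D3:**
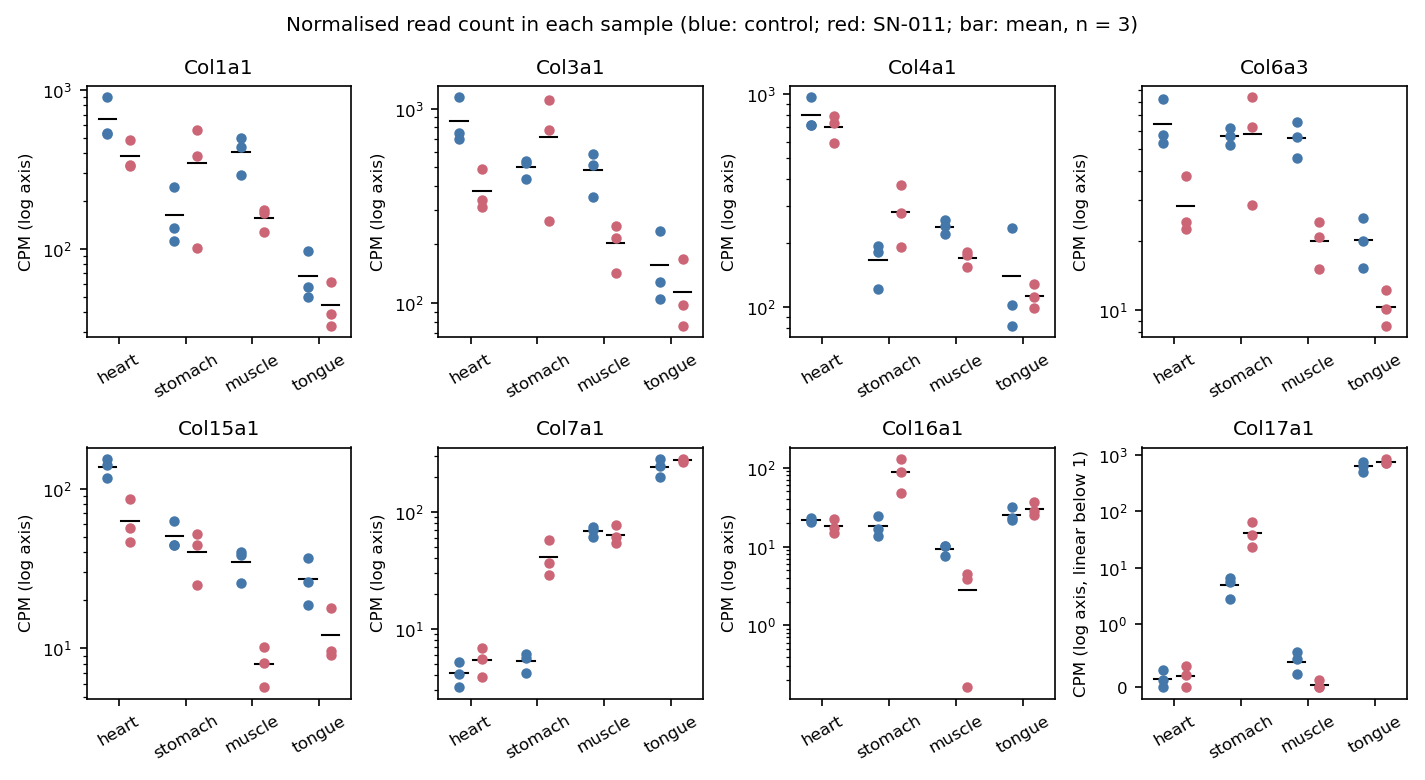
CPM of 8 collagen genes in every sample, with 1 panel per gene and control and SN-011 samples side by side in each tissue; the axis is logarithmic, and linear below 1 for Col17a1. Col7a1, Col16a1 and Col17a1 are higher in all 3 stomach SN-011 samples than in all 3 stomach control samples, while Col15a1 is lower in the SN-011 samples of heart, muscle and tongue without overlap.

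In the stomach 35 of 39 tested collagens had a positive difference, and the groups were apart for Col7a1, Col16a1 and Col17a1. None of 39 tested collagens passed an adjusted p of 0.05, and neither did any of the 17031 genes tested (0.0%). At an unadjusted p under 0.05, 14 collagens were higher (35.9%) and 0 lower, beside 13.2% and 11.4% of all genes. DESeq2 and edgeR's exact test each called 10, beside 14.0% and 10.6% of all genes. The groups did not overlap for 13 that were higher (33.3%) and for 0 that were lower, beside 17.8% and 15.2% of all genes. By class, 4 of 7 FACITs, 4 of 10 fibrillar genes, 2 of 4 transmembrane genes, Col7a1, 1 of 6 basement membrane, 1 of 6 beaded filament and 1 of 2 short chain genes were higher at an unadjusted p under 0.05.

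Col7a1 (chromosome 9, 108953586 to 108984875) was at 6.05, 5.61 and 4.17 CPM in the control samples and 57.8, 29.1 and 36.2 CPM in the SN-011 samples in the stomach. The lowest SN-011 sample lay far above the highest control sample. The fitted level was 7.79-fold higher, 2.96 ± 0.34 on the log2 scale, with an adjusted p of 0.0618 by edgeR's quasi-likelihood test. Col17a1 (chromosome 19, 47646344 to 47692094, minus strand), its partner at the epithelial junction, was at 6.61, 5.67 and 2.84 CPM in the control samples and 63.3, 23.4 and 38.3 CPM in the SN-011 samples. This was 8.30-fold higher, 3.05 ± 0.46, with an adjusted p of 0.0618.

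Col16a1, a FACIT found near basement membranes (chromosome 4, 130047840 to 130099283), was at 24.2, 13.8 and 16.6 CPM in the control samples and 129, 48.3 and 89.2 CPM in the SN-011 samples, a difference of 2.29 ± 0.39. Col20a1, another FACIT (chromosome 2, 180986535 to 181018363), was at 3.23, 3.87 and 4.28 CPM in the control samples and 15.7, 14.1 and 13.9 CPM in the SN-011 samples, with a difference of 1.94 ± 0.31, and Col25a1, a transmembrane collagen of neurons, was at 0.807, 0.811 and 1.28 CPM in the control samples and 9.01, 2.11 and 6.14 CPM in the SN-011 samples, with 2.56 ± 0.63. Col6a6 showed the highest ratio, 3.57 ± 1.08, but at 0.323, 0.624 and 0 CPM in the control samples and 5.89, 1.19 and 4.18 CPM in the SN-011 samples, that is close to the floor in the control samples. Among fibrillar chains, Col5a3 was at 19.5, 11.8 and 16.5 CPM in the control samples and 55.0, 24.3 and 47.7 CPM in the SN-011 samples, with a difference of 1.41 ± 0.35 and groups apart.

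The abundant stromal collagens were not separated. Col1a1 was at 244, 135 and 112 CPM in the control samples and 559, 102 and 383 CPM in the SN-011 samples, with a difference of 1.09 ± 0.59, and Col3a1 at 535, 435 and 524 CPM in the control samples and 1104, 264 and 772 CPM in the SN-011 samples, with 0.52 ± 0.50. In both genes SN-011 replicate 2 lay below every control sample and SN-011 replicates 1 and 3 above every one. The groups also overlapped for the other named chains, with 0.49 for Col1a2, 1.03 for Col5a1, 0.81 for Col5a2, 0.76 for Col4a1, 0.75 for Col4a2, 0.49 for Col6a1, 0.32 for Col6a2, 0.04 for Col6a3, 1.86 for Col8a1, 0.68 for Col12a1, 0.66 for Col14a1 and 0.37 for Col18a1. Col15a1 was 1 of 4 negative genes, at 62.7, 44.3 and 44.2 CPM in the control samples and 51.7, 25.1 and 44.3 CPM in the SN-011 samples, with a difference of -0.32 ± 0.31.

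Leaving out SN-011 replicate 2 of the stomach gave 3 called collagens, Col7a1, Col16a1 and Col17a1, beside 0.33% of all genes, and 21 higher at an unadjusted p under 0.05, beside 13.7%. Leaving out control replicate 1 gave 1, Col7a1, beside 0.356%. In the joint fit of all tissues, whose spread is shared, 9 were called, namely Col5a3, Col6a6, Col7a1, Col11a2, Col16a1, Col17a1, Col20a1, Col25a1 and Col26a1, beside 13.9% of all genes. Col26a1 was too low to test in the stomach alone and passed the joint filter through other tissues. It had 0, 0 and 2 counts in the stomach control samples and 27, 0 and 13 in the stomach SN-011 samples.

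Markers of other cell types were read in the same samples. The 4 basal epithelial markers summed to 403, 323 and 196 CPM in the control samples and 1308, 437 and 851 CPM in the SN-011 samples, and Krt5, the keratin of basal keratinocytes, was at 88.3, 55.9 and 41.8 CPM in the control samples and 526, 133 and 301 CPM in the SN-011 samples. Of the 4, Krt5, Krt14 and Trp63 were higher at an unadjusted p under 0.05, and Itgb4 differed by -0.29. The keratins Krt13, Krt4, Krt6b and Krt76 of suprabasal stratified epithelium summed to 52.5, 79.7 and 29.4 CPM in the control samples and to 307, 181 and 214 CPM in the SN-011 samples, without overlap. Krt13 (2.21), Krt4 (1.87) and Krt6b (2.14) were higher at an unadjusted p under 0.05, and Krt76 was too low to test. Mural markers of smooth muscle and pericytes summed to 1067 to 5061 CPM in the control samples and 4231 to 8230.5 CPM in the SN-011 samples, with 4 of 5 higher at that threshold, and 7 fibroblast markers to 294 to 606 CPM in the control samples and 389 to 1138 CPM in the SN-011 samples. The gastric genes, as given above, were at 88729, 43028 and 24095 CPM in control and 4114, 30643 and 21400 CPM in SN-011 samples, the lowest in SN-011 replicate 1, where Col7a1, Col17a1, Col1a1 and Krt5 were highest. The mouse stomach has a squamous forestomach and a glandular part, and the labels do not say which part was sampled. The part of tissue composition in these collagen values was not tested.

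**Figure D4:**
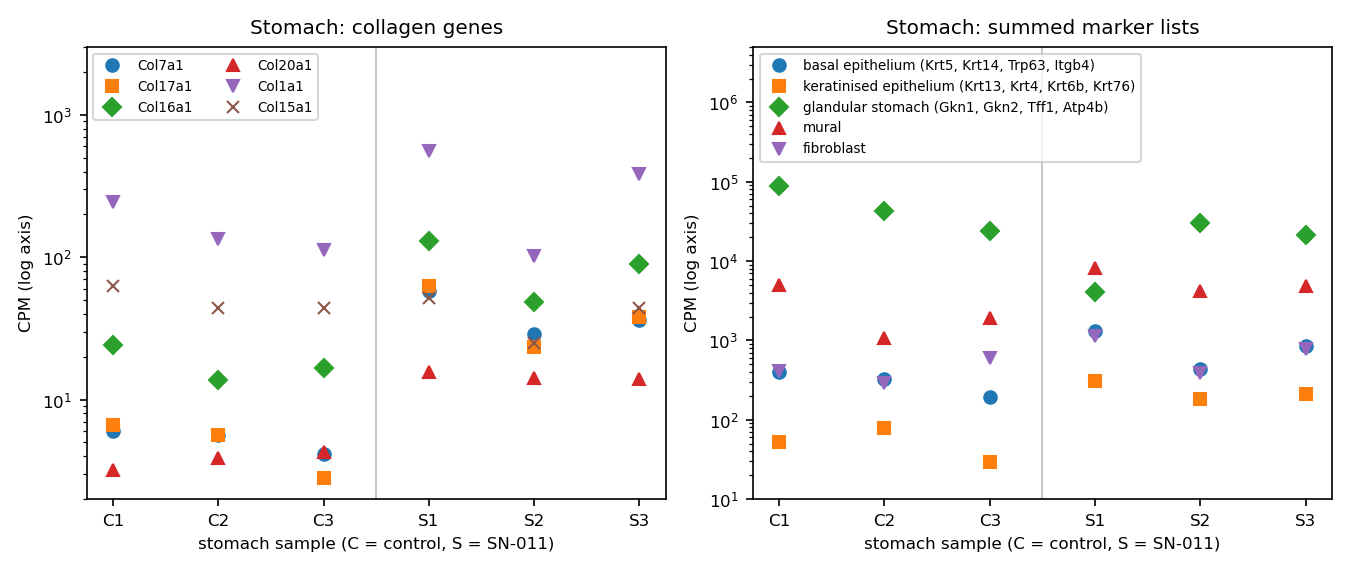
Collagen genes and marker sums in the 6 stomach samples, in CPM on logarithmic axes, with control and SN-011 samples side by side. The basal epithelial sum is highest (1308 CPM) and the gastric sum lowest (4114 CPM) in SN-011 replicate 1.

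In the tongue few collagens differed. None of 36 passed an adjusted p of 0.05, and neither did any of the 16587 genes tested (0.0%). At an unadjusted p under 0.05, 2 were lower (5.56%) and 1 higher, beside 7.33% and 5.17% of all genes, and DESeq2 called 3 (Col6a3, Col6a5, Col15a1) and edgeR's exact test 1 (Col6a5) after adjustment, beside 2.52% and 1.48% of all genes. The groups were apart for 4 lower and 1 higher, beside 8.38% and 9.4% of all genes. At the unadjusted threshold the collagen shares, 5.56% lower and 2.78% higher, were below those of all genes. For groups apart, 11.1% of collagens were lower, above the share of all genes, and 2.78% higher, below it. The DESeq2 and exact test counts rest on 3 genes and 1 gene.

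Col6a5 was the gene higher in the tongue, at 0.398, 0.324 and 0.687 CPM in the control samples and 4.06, 1.81 and 6.48 CPM in the SN-011 samples. The groups did not overlap, and the difference was 3.11 ± 0.58, with an adjusted p of 0.263 by edgeR's quasi-likelihood test. Col6a5 is a stomach-high gene, and the gastric genes were at 27.0, 1194 and 1299 CPM in the tongue control and at 6.15, 7.51 and 14.8 CPM in the tongue SN-011 samples. The gastric genes were thus lower where Col6a5 was higher, and a link between them was not tested. Col6a3 was at 25.2, 20.0 and 15.2 CPM in the control samples and 10.1, 8.54 and 12.3 CPM in the SN-011 samples, and Col15a1 at 36.8, 18.6 and 26.1 CPM in the control samples and 9.61, 9.06 and 17.9 CPM in the SN-011 samples. Both were apart, with differences of -0.96 ± 0.24 and -1.15 ± 0.35. The abundant junction collagens overlapped, with Col7a1 at 248, 199.6 and 283 CPM in the control samples and 276, 269.5 and 284 CPM in the SN-011 samples and Col17a1 at 754, 497 and 623 CPM in the control samples and 713, 709 and 837 CPM in the SN-011 samples. Their differences were 0.18 ± 0.15 and 0.27 ± 0.18.

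For the stromal chains of the tongue, control replicate 1 was the high sample. Col1a1 was at 96.6, 57.3 and 49.6 CPM in the control samples and 39.0, 32.7 and 61.8 CPM in the SN-011 samples and Col4a1 at 235, 81.9 and 102 CPM in the control samples and 99.0, 112 and 129 CPM in the SN-011 samples, with overlapping groups and differences of -0.61 ± 0.32 and -0.30 ± 0.38. With all samples Col3a1 gave -0.46, Col1a2 -0.27, Col4a2 -0.16, Col5a1 -0.47, Col5a2 -0.25, Col6a1 -0.23, Col6a2 -0.39, Col8a1 -0.27, Col12a1 0.53, Col14a1 -0.84 and Col18a1 -0.21. Without control replicate 1, the female sample, Col1a2, Col4a1, Col4a2, Col5a2, Col6a1 and Col6a2 turned positive (0.19 to 0.37) and Col6a5 was called, beside 12.5% of all genes. That sample also had the highest sums of fibroblast markers (852 CPM, with 361 to 512 CPM in the other 5) and endothelial markers (326 CPM, with 138 to 164 CPM).

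To ask whether the effect of SN-011 itself differed between tissues, the interaction was tested in the joint edgeR quasi-likelihood fit. It passed an adjusted p of 0.05 for 9 of 42 collagens (21.4%), Col5a1, Col5a3, Col6a6, Col7a1, Col11a2, Col16a1, Col17a1, Col20a1 and Col25a1, beside 2.32% of all genes, and 26 collagens of 42 had an unadjusted p under 0.05, beside 17.7%. Between stomach and muscle 16 collagens differed (38.1%), all with the higher effect in stomach, beside 6.95% of all genes. Of these, Col9a2 and Col17a1 were too low to test in muscle alone and Col26a1 in stomach alone. They entered the joint fit through other groups. Heart and stomach differed for 4 (Col5a3, Col6a6, Col7a1, Col20a1), beside 2.01% of all genes, and stomach and tongue for 4 (Col5a3, Col7a1, Col17a1, Col20a1), beside 0.821%. These pairs share groups of samples and are not independent.

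The effect on Col7a1 was higher in stomach than in muscle by 3.09 ± 0.37 on the log2 scale, with an adjusted p of 0.000422 by edgeR's quasi-likelihood test. That on Col5a3 was higher by 2.56 ± 0.38 (adjusted p of 0.00182) and that on Col16a1 by 3.98 ± 0.75 (adjusted p of 0.00526). Col1a1, Col6a3, Col8a1, Col9a2, Col15a1, Col18a1 and Col26a1 also passed for stomach against muscle. In muscle Col9a2 had 2, 5 and 6 counts in the control samples and 0, 0 and 0 in the SN-011 samples. In stomach Col26a1 had 0, 0 and 2 counts in the control samples and 27, 0 and 13 in the SN-011 samples. Their fitted differences rest on few reads. No collagen passed for heart against muscle, heart against tongue or muscle against tongue, where 0.00507%, 0.0%, and 0.0355% of all genes did, and 4, 1 and 9 of 42 collagens had an unadjusted p under 0.05 by edgeR's quasi-likelihood test, beside 6.6%, 2.83% and 8.1% of all genes. The count of 9 over all tissues ranged from 3 to 17 when 1 library was left out. It was 17 without stomach SN-011 replicate 2 and 10 without muscle SN-011 replicate 2, and it was 3 without muscle control replicate 2, stomach control replicate 2, stomach SN-011 replicate 1 or stomach SN-011 replicate 3. The share of all genes called in these fits is not given here.

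Chains can also be compared with each other within a sample. In 5 of 6 pairs the chains belong to 1 collagen type, and in the other, Col3a1 to Col1a1, they are chains of different trimers that share fibrils. For these pairs in 4 tissues the log2 ratio of their RPKM was compared by a two-sided exact permutation test over samples, which cannot go below 0.1 with 3 against 3, so none of the 24 tests could pass 0.05. The ratio of Col6a3 to Col6a1 in the heart was -3.07, -3.09 and -3.42 in control and -3.99, -3.75 and -3.59 in SN-011 samples. It was lower in the SN-011 samples without overlap there, in muscle and in tongue, by -0.59, -0.51 and -0.81 (exact permutation p of 0.1 each, 0.24 after adjustment over 24 tests), and by -0.56 with overlap in the stomach. The ratio of Col3a1 to Col1a1 in the heart differed by -0.43 without overlap, from -0.17 ± 0.08 to -0.60 ± 0.06. Also without overlap were Col5a1 to Col5a2 in muscle (-0.55) and tongue (-0.23), Col4a1 to Col4a2 in heart (-0.19) and tongue (-0.11), Col1a1 to Col1a2 in tongue (-0.41) and Col6a1 to Col6a2 in tongue (0.15), each with the same p. The ratio of Col1a1 to Col1a2 differed by -0.01 in heart (exact permutation p of 0.9), -0.30 in muscle and 0.51 in stomach, with overlap in all 3.

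**Figure D5:**
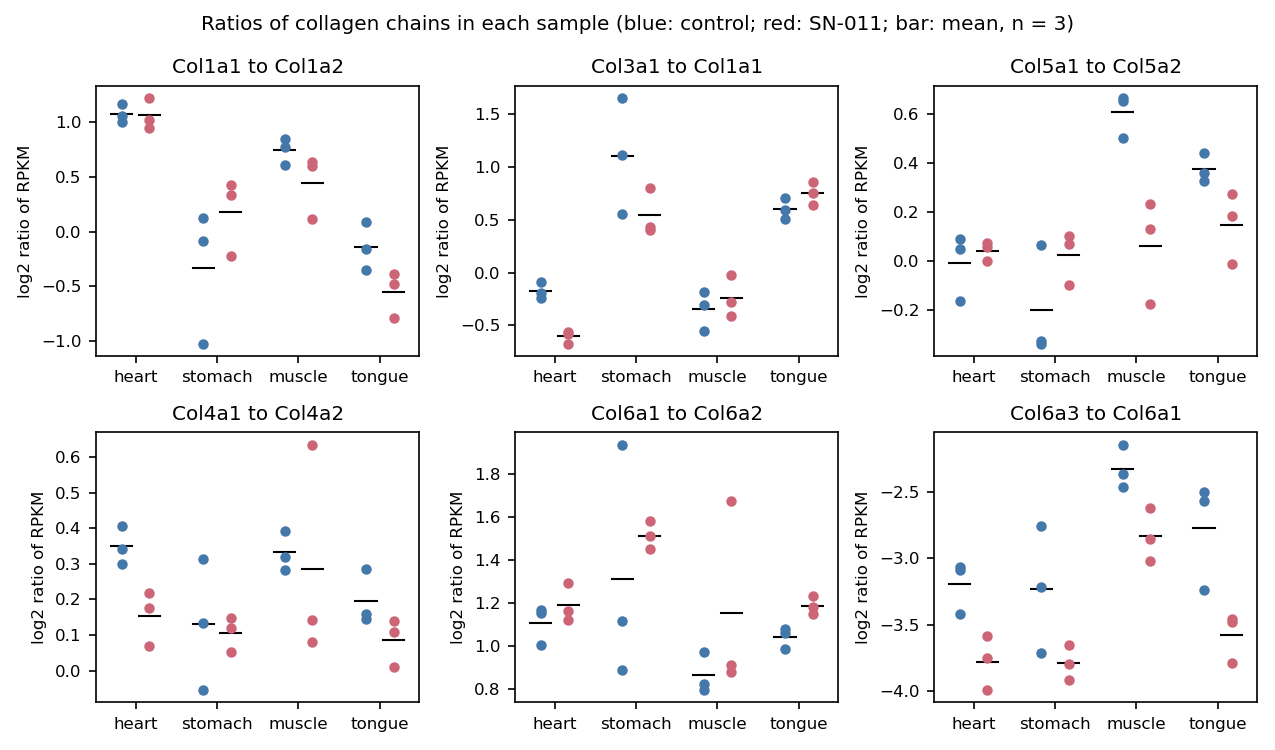
Log2 ratio of the RPKM of paired collagen chains in each sample, by tissue, with control and SN-011 samples side by side. Col6a3 to Col6a1 lies lower in the SN-011 samples of heart, muscle and tongue without overlap, and Col1a1 to Col1a2 in the heart lies in 1 range.

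The enzymes and chaperones that make collagen were followed from a list of 29 genes. At an unadjusted p under 0.05, 8 were lower and 1 higher of 29 in heart (median -0.18), 4 lower and 2 higher of 27 in muscle (median -0.43), 0 lower and 10 higher of 29 in stomach (median 0.99) and 2 lower and 1 higher of 28 in tongue (median -0.04), and none passed an adjusted p of 0.05 by edgeR's quasi-likelihood test. Of all genes tested, 11.6% were lower and 10.8% higher at that unadjusted threshold in heart, 5.8% and 8.96% in muscle, 11.4% and 13.2% in stomach and 7.33% and 5.17% in tongue, and the same shares apply to the lists that follow. In the heart Crtap, a component of the prolyl 3-hydroxylation complex, was at 61.2, 65.8 and 67.0 CPM in the control samples and 38.6, 41.0 and 48.1 CPM in the SN-011 samples, a difference of -0.60 ± 0.12, and Loxl1, a cross-linking oxidase, differed by -0.79. In the stomach Plod2, which hydroxylates lysines for cross-links, was at 17.7, 9.35 and 20.4 CPM in the control samples and 101, 41.8 and 80.8 CPM in the SN-011 samples, a difference of 2.23 ± 0.41, and Bmp1, the protease that trims fibrillar procollagens, differed by 1.94. In muscle Pcolce, an enhancer of that protease, was at 56.7, 57.6 and 60.9 CPM in the control samples and 31.2, 30.6 and 34.1 CPM in the SN-011 samples, a difference of -0.87 ± 0.11, and Lox, another cross-linking oxidase, differed by 0.82, in the other direction. In the tongue the prolyl hydroxylase subunits P4ha2 and P4ha3 gave 0.54 and -1.22.

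Of 12 genes of collagen breakdown, 3 were lower and 1 higher of 10 tested in heart, 1 and 5 of 11 in stomach, 3 and 1 of 9 in muscle and 2 and 0 of 10 in tongue at an unadjusted p under 0.05. The smallest p values belonged to Mmp14 (-0.77), a membrane-bound collagenase, and the inhibitor Timp4 (1.67) in heart, to the collagenase Mmp13 (-1.92) and the inhibitor Timp1 (2.65) in stomach, to the collagen uptake receptor Mrc2 (-1.12) and Mmp2 (-0.62) in muscle, and to Mmp13 (-2.33) and Mmp3 (-0.64) in tongue. Of 9 receptors, 4 were lower and 0 higher of 8 tested in heart, 1 and 3 in stomach, 1 and 0 in muscle and 0 and 1 in tongue. They were led by the integrin chains Itga1 (-0.54) and Itga2 (-1.25) in heart, Itga10 (1.81) and Itga2 (-1.37) in stomach and Itga10 (0.98) and Itga1 (-0.49) in tongue, and by Itga1 (-0.74) and the receptor kinase Ddr2 (-0.50) in muscle.

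Of 9 regulators and matrix partners, 2 were lower and 1 higher in heart, 0 and 2 in stomach, 2 and 0 in muscle and 1 and 0 in tongue at an unadjusted p under 0.05. The matricellular gene Ccn2 gave 0.80 and fibronectin, Fn1, -0.54 in heart, the growth factor Tgfb3 2.80 and Fn1 1.24 in stomach, periostin, Postn, -0.96 and Tgfb2 -2.32 in muscle, and Tgfb2 -0.63 and Postn -0.67 in tongue. None of the breakdown, receptor and regulator genes passed an adjusted p of 0.05 in any tissue by edgeR's quasi-likelihood test.

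Other marker lists were read for cells that could carry collagen RNA. The chondrocyte genes Acan, Matn1, Matn3 and Snorc were too low to test in all 4 tissues, and the tendon markers Tnmd, Scx and Mkx summed to 10.9 to 17.0 CPM in the control samples and 4.93 to 5.47 CPM in the SN-011 samples in muscle, with 0 of 2 tested at an unadjusted p under 0.05. Over the 4 tissues the numbers lower and higher at that threshold were 0 and 1 for 4 Schwann markers (Sox10 in stomach), 0 and 1 for the tendon markers (Scx in stomach), 1 and 0 for the chondrocyte marker Sox9 (heart), and 2 and 0 for 4 leukocyte markers (Ptprc in heart and tongue). Leukocyte markers summed to 164 to 399 CPM in the control samples and 155 to 208 CPM in the SN-011 samples in heart. Endothelial markers were lower in 1 of 4 in heart (Kdr), 2 in muscle and 1 in tongue, mural markers lower in 1 and higher in 2 of 5 in muscle, and basal epithelial markers lower in 1 of 2 in muscle and higher in 1 of 4 in tongue.

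The 250 bases before the RefSeq start are shown for 4 members with values given above, the stromal fibrillar genes Col1a2 and Col3a1 and the epithelial junction genes Col7a1 and Col17a1. For Col1a2 and Col17a1 this start differs from the GENCODE gene range given above. The Col1a2 window lies inside that range and the Col17a1 window overlaps it. The sequences are from RefSeq on GRCm38.p6, on the strand of the gene, with matches on either strand in capitals to the CCAAT box (CCAAT), the TATA box (TATAAA), the GC box (GGGCGG) and the AP-1 site (TGACTCA).
Col1a2, chr6:4505368-4505617, plus strand: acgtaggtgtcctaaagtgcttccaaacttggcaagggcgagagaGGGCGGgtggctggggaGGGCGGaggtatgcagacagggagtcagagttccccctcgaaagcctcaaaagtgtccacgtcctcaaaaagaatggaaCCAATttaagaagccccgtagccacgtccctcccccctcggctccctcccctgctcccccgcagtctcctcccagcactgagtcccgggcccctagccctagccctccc
Col3a1, chr1:45311288-45311537, plus strand: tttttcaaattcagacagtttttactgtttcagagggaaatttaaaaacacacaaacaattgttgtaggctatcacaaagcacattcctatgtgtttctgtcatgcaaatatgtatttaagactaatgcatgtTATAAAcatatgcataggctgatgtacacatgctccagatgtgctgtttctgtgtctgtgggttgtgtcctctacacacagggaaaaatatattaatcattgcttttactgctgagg
Col7a1, chr9:108953336-108953585, plus strand: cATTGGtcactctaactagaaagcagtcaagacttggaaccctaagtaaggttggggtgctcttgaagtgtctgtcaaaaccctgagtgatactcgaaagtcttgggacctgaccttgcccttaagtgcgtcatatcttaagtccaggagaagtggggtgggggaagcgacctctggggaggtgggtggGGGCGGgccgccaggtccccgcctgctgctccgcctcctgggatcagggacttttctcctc
Col17a1, chr19:47692043-47692292, minus strand: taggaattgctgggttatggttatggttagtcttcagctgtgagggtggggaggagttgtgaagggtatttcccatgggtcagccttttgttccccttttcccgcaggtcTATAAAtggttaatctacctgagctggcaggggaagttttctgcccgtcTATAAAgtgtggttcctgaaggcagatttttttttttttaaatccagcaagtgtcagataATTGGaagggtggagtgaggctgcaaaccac
In these windows Col1a2 held GGGCGG at -205 and -188 and CCAAT at -109, counted from the start. Col3a1 held TATAAA at -117. Col7a1 held CCAAT at -249 and GGGCGG at -61, and Col17a1 held TATAAA at -140 and -91 and CCAAT at -31. Among the 35 collagens with a promoter in the table, GGGCGG was present in 21 (60.0%), beside 32.7% of all 32851 promoters. CCAAT was present in 12 (34.3%), beside 33.8%, TATAAA in 5 (14.3%), beside 12.4%, and TGACTCA in 1 (Col6a1), beside 4.46%. Each collagen gene counted once here, whereas the 32851 promoters were not limited to 1 per gene or to protein-coding genes. The shares are therefore not matched. A match describes letters only. Promoters of Col1a1, Col2a1, Col4a3, Col5a2, Col9a3, Col12a1, Col14a1, Col22a1 and Col26a1 were not used here.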

How the data were processed

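RNA of 4 tissues of Trex1-KO mice was sequenced as poly(A)+ paired-end libraries. The deposited values are raw counts per gene, made by the authors with HISAT2 on mm10 and HTSeq per the labels, whereas the methods name featureCounts and a strand-specific library, and versions and the strand setting are not given in the sources used here. Without them, reads of overlapping genes (Col4a1 and Col4a2, Col1a2 and Gm43921) may be assigned uncertainly. Gene IDs were matched to GENCODE M21 (54495 of 54532).

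Counts were fitted with edgeR 4.0.16 (R 4.3.3): TMM, filterByExpr (minimum count 10, total 15), quasi-likelihood test, prior count 0.125, Benjamini-Hochberg over all genes tested, threshold 0.05. SN-011 was compared with control within each tissue, and tissues and interactions in a joint fit of 24 samples. CPM used each sample's counts on genes passing the filter, scaled by TMM within its tissue. Only the CPM given for 3 counts used the total count. RPKM used the joint TMM scaling and the union of exons. Log2 differences are SN-011 minus control and errors are SE, and ± beside levels, shares and ratios is SD (n = 3). The floor of 3 counts covers counting error only, whereas SE and SD include the spread between samples. DESeq2 1.42.0, edgeR's exact test, other scalings and filters, the replicate block and each sample left out were alternatives. Fits were tested on simulated data, with the changed genes drawn only from those above a minimum mean CPM. The recovered numbers therefore do not cover genes with few reads, such as Col6a6 in stomach. Of 100 genes changed by 1 on the log2 scale, 67 were recovered in heart, 2 in stomach, 8 in muscle and 28 in tongue. For a change of 2 these were 97, 51, 46 and 92. The interaction test recovered 1 of 100 genes changed by 1 in heart alone and 25 of 100 changed by 2. A count of 0 called therefore does not show that no gene changed.

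Genes named were a preset group of 17 chains, any called gene, up to 3 of the largest rises and falls per tissue at an unadjusted p under 0.05 with at least 1 CPM, the 5 highest per tissue and up to 6 of the largest tissue differences. For each companion list, the 2 of smallest p were named. Col5a3 and Col20a1 in stomach and the interaction genes are named from their values. The members and all lists (biosynthesis, breakdown, receptors, regulators and cell type markers) were chosen with earlier results of these data known.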

Additional observations from a re-analysis of the deposited data

Results flagged for a closer look

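For 9 collagen genes the effect of SN-011 differed between the 4 tissues in the interaction test of the joint fit (edgeR's quasi-likelihood test, adjusted over all 19731 genes). The adjusted p was 0.00178 for Col7a1, 0.0105 for Col5a3, 0.0121 for Col17a1, 0.0253 for Col20a1, 0.0300 for Col16a1, 0.0328 for Col25a1, 0.0432 for Col11a2, 0.0466 for Col5a1 and 0.0487 for Col6a6. In all 9 the fitted effect was higher in stomach than in muscle. The difference was 2.38 ± 0.50 on the log2 scale for Col5a1, 2.83 ± 0.58 for Col11a2, 2.39 ± 0.52 for Col20a1, 4.48 ± 1.04 for Col6a6 and 5.24 ± 1.03 for Col25a1. Col17a1 gave 6.17 ± 1.07 at no more than 0.555 CPM in muscle, so this fitted difference depends on the prior count.

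Col7a1 and Col5a3 passed under all 30 alternatives tried and Col17a1 under all 29. Col20a1 passed under 24 of 30, Col16a1 under 22 of 29, Col25a1 under 16 of 29, Col11a2 under 11 of 30, Col5a1 under 10 of 30 and Col6a6 under 9 of 29.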

How the results depend on the processing

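The counts of collagens called for SN-011 depended on the setting, and the cause was not tested. In heart 0 became 4 with library size alone, 12 without a filter, 4 with at least 10 counts in every sample, and 11 with DESeq2 or edgeR's exact test. In stomach 0 became 9 without a filter, 4 with at least 10 counts, 10 with DESeq2 or the exact test, and 9 in the joint fit. Beside these, 1368 of 27444 and 126 of 14158 genes were called, then 14.0%, 10.6% and 13.9% of all genes. In muscle 0 became 8, 5, 11 (DESeq2), 9 (exact test) and 5 in the same order, and in tongue 3 with DESeq2 and 1 with the exact test. Beside the muscle counts, 110 of 25956 and 75 of 10233 genes were called, then 6.2% and 3.11%, and 474 of 19731. Beside the tongue counts, 2.52% and 1.48% of all genes were called. Leaving out 1 sample gave 0 to 7 in heart, 0 to 3 in stomach, 0 to 15 in muscle and 0 to 1 in tongue. In those fits 1 to 787, 0 to 64, 0 to 1103 and 0 to 2135 of all genes were called. For the tissue comparisons, leaving out 1 sample gave 15 to 25 in heart, 19 to 23 in stomach, 22 to 29 in muscle and 19 to 22 in tongue. With at least 10 counts in every sample stomach and muscle each had 12. The interaction count was 18 with DESeq2 and 3 to 17 with 1 sample left out. The share of all genes called is not given for these tissue and interaction settings, so their counts cannot be read as particular to collagens.

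Same-numbered control and SN-011 samples did not deviate together: the mean correlation was -0.05 in heart, 0.06 in stomach, 0.04 in muscle and -0.31 in tongue, and of 3 pairs 0, 1, 0 and 0 exceeded 0.1, so within a tissue the numbers were not used as a pairing. Across tissues, same-numbered samples had a mean correlation of 0.24 in control samples (-0.11 for other numbers), with 15 of 18 pairs over 0.1, and 0.07 in SN-011 samples, with 6 of 18. The labels do not say whether a number marks 1 mouse, though control replicate 1 had the female pattern in all 4 tissues. The joint fit took the 24 samples as independent. With the replicate block 0, 3, 0 and 0 collagens were called in heart, stomach, muscle and tongue and 6 in the interaction (9 without it), and Col4a2 in heart turned to 0.011 and Col6a3 in stomach to -0.090. Of all genes, 242 of 16151, 181 of 17031, 0 of 14198 and 0 of 16587 were called with the block in the 4 tissues. The all-gene share for the interaction with the block is not given here.

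Among the values of named genes for SN-011, 906 kept direction and side of the threshold, 138 newly passed it and 16 changed sign. The last were Col6a3 in stomach in the joint fit (-0.0044), and with 1 sample left out Col4a2 in heart (-0.11 to 0.17), Col6a3 in stomach (-0.32 to 0.34), Col7a1 (-0.24 to 0.011) and Col12a1 (-0.42 to 0.035) in muscle, and in tongue Col1a2 (-0.54 to 0.23), Col5a2 (-0.47 to 0.19), Col4a1 (-0.58 to 0.30), Col4a2 (-0.41 to 0.37), Col6a1 (-0.51 to 0.30) and Col6a2 (-0.69 to 0.19). Of the tissue values, 10 changed sign: in stomach Col3a1 (0.074 with DESeq2 or its size factors, 0.17 with library size, 0.093 with at least 10 counts, -0.14 to 0.072 with 1 sample left out) and Col1a2 (0.0083 with library size), and in muscle Col4a1 (-0.025) and Col4a2 (-0.13) with library size. Values near the floor of 3 counts rest on few reads.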
